A study of Mus musculus with 22 samples.

Results

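The genes described here are 10 enzymes that draw on S-adenosylmethionine (SAM) or on the polyamines made from it, measured in liver mRNA of mice on chow or on a methionine/choline deficient (MCD) diet. They were taken as the rows of the count table whose symbol is *Amd1*, *Srm*, *Sms*, *Odc1*, *Sat1*, *Nnmt*, *Gamt*, *Hnmt*, *As3mt* or *Inmt*, which is 10 of 55573 genes, and all 10 passed the filter on low counts. The rule reads the symbols alone. Liver mRNA of 22 C57BL/6 mice was sequenced, 1 library per mouse. Control mice (Cre mice) were Flcn WT/WT; Albumin-Cre+/-, and 6 of them were fed chow with 10 kcal percent fat and 5 the MCD diet. Liver-Flcn-/- mice (FLCN KO) carried floxed *Flcn* alleles and Albumin-Cre+/-, which removes exon 7, and 5 were fed chow and 6 the MCD diet. Mice of every group were 3 months old, and either diet began at 6 weeks of age and was given for 6 weeks. All mice of all groups thus carried the recombinase, which the albumin promoter drives in hepatocytes, so the liver counts also include RNA of cells in which *Flcn* was not targeted.

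SAM is made from methionine by methionine adenosyltransferases and is the methyl donor of most methylation reactions. Methyltransferases pass its methyl group to small molecules such as nicotinamide, guanidinoacetate and histamine, and to DNA, RNA and proteins. Polyamine synthesis uses SAM in another way: AMD1 removes its carboxyl group, and the decarboxylated product donates an aminopropyl group to putrescine, which ODC1 makes from ornithine, to give spermidine (SRM), and to spermidine to give spermine (SMS). SAT1 acetylates spermidine and spermine, which opens the route to their oxidation or export. In liver, much SAM is normally spent on creatine synthesis, phosphatidylcholine synthesis and glycine methylation, and the MCD diet lacks the methionine from which SAM is made.

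Promoters are shown for genes that rose (*Amd1*, *Odc1*, *Sat1*) and for the pair that fell most (*Gamt*, *Inmt*) in the diet comparisons below. Each sequence, from RefSeq on GRCm38.p6, is the 100 bases before the more upstream of the RefSeq and GENCODE M21 gene starts, and capitals mark a match to TATAAA or TATATA on either strand. The windows are chr10:40302189-40302288 (minus strand) for *Amd1*, chr12:17544694-17544793 (plus strand) for *Odc1*, chrX:155216450-155216549 (minus strand) for *Sat1*, chr10:80261013-80261112 (minus strand) for *Gamt* and chr6:55175044-55175143 (minus strand) for *Inmt*.
Amd1: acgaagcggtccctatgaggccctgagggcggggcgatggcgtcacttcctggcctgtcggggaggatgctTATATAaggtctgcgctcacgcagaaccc
Odc1: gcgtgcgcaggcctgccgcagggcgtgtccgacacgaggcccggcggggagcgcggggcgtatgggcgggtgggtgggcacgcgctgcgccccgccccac
Sat1: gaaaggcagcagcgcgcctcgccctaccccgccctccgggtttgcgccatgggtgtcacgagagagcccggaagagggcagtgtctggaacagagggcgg
Gamt: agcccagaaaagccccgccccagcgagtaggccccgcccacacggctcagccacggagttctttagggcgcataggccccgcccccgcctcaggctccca
Inmt: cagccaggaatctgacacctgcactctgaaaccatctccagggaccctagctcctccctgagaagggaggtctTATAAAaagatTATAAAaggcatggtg

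*Inmt* held TATAAA at 27 to 22 and again at 16 to 11 bases before the gene start, and *Amd1* held TATATA at 29 to 24 bases before it. Over 32851 RefSeq promoter windows of the same length, taken before the RefSeq start, TATAAA occurred in 5.56% and TATATA in 2.19%. An E-box (CACGTG, found in 3.17% of windows) and the amino acid response element letters TGATGCAA (0.359%), both searched on both strands, were not in the windows of the 8 members that matched the promoter table, which were these and *Sms*, *Hnmt* and *As3mt*. The share of G and C was 82% for *Odc1*, 71% for *Gamt*, 69% for *Sat1*, 63% for *Amd1* and 49% for *Inmt*, against a median of 55% over all windows. These matches describe the letters of the windows and not the binding of a factor.

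The libraries held 13751347 to 21144388 counts on genes. Levels are in CPM, read counts relative to the library total, adjusted with edgeR's trimmed mean of M-values (TMM). The members' counts ranged from 19 to 113 per library for *Sms*, the lowest, and from 343 to 10128 for *Inmt*. Between groups, a gene is called changed at an adjusted p under 0.05 from edgeR's two-sided quasi-likelihood test, adjusted by Benjamini-Hochberg over 14062 tested genes. Fold changes are on the log2 scale, with SE or a 95% interval, and p-values measure the spread between mice.

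The labels were checked before the comparisons. *Flcn*, counted over all its exons, ranged from 26.1 to 40.1 CPM in Cre mice on chow and had 24.2, 19.9, 16.7, 19.4 and 21.7 CPM in the FLCN KO mice on chow, so these groups did not overlap (log2 fold change -0.63, SE 0.17, adjusted p = 0.025). On MCD the levels overlapped (18.2 to 39.8 against 17.6 to 32.6 CPM, log2 fold change -0.16, adjusted p = 0.57), and since only exon 7 is removed, a count over the whole gene does not test the deletion. Hepatocyte markers were abundant in every liver, with *Alb* at a median of 98580 CPM in Cre mice on chow. In bulk tissue, fewer cells of a type and less RNA per cell cannot be told apart. Several libraries stand apart. The Cre liver on MCD numbered 3 had a summed level of 10 skeletal muscle genes of 3021 CPM and the one numbered 4 had 147 CPM, while no other liver was above 66.6 CPM. *Xist* reads marked 12 livers and Y-linked reads the other 10, both in every group, and the labels give no sex. Cre MCD 1 carried both kinds (5411 *Xist* and 675 Y-linked counts), as did FLCN KO chow 2 (6222 and 451). Fewer Y-linked counts stood beside *Xist* in FLCN KO MCD 3 (224), FLCN KO chow 4 (214) and Cre chow 2 (180). The remaining *Xist* livers had at most 51. Reads mapped uniquely at a low rate in 5 chow libraries (3 Cre, 2 FLCN KO), all of them from livers with Y-linked reads, so on chow these properties cannot be told apart. Between genotypes on chow, the fits without these libraries and with *Xist* livers alone thus compare the same chow livers. They are not separate checks there. Livers with Y-linked reads were 3 Cre and 2 FLCN KO on chow and 2 Cre and 3 FLCN KO on MCD, and the Cre pair on MCD were numbers 3 and 4, the muscle-rich ones. Cre values from Y-linked livers alone thus rest on few livers, in which these reads, low mapping on chow and muscle RNA on MCD cannot be told apart.

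With MCD in Cre mice, 5 of the 10 genes rose (*Amd1*, *Srm*, *Sms*, *Odc1*, *Sat1*) and 2 fell (*Gamt*, *Inmt*). In FLCN KO mice 4 rose (*Srm*, *Odc1*, *Sat1*, *As3mt*) and 3 fell (*Nnmt*, *Gamt*, *Inmt*). All genes of the table give the background. In Cre mice 57.5% of tested genes were called, 29.3% upward and 28.2% downward, and in FLCN KO mice 45%, with 22.5% upward and 22.5% downward. Diet groups did not overlap for 5 members in Cre mice and for 7 in FLCN KO mice, against 32.5% and 29.2% of all tested genes. The median log2 fold change of the 10 members was 0.26 in Cre and 0.30 in FLCN KO mice, and of all tested genes 0.01 and 0.00. The 5 polyamine enzymes had positive values in both genotypes, whether or not they passed, while the methyltransferases had values of both signs. Without the muscle-rich Cre MCD 3 the same 7 members were called in Cre mice.

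**Figure D1:**
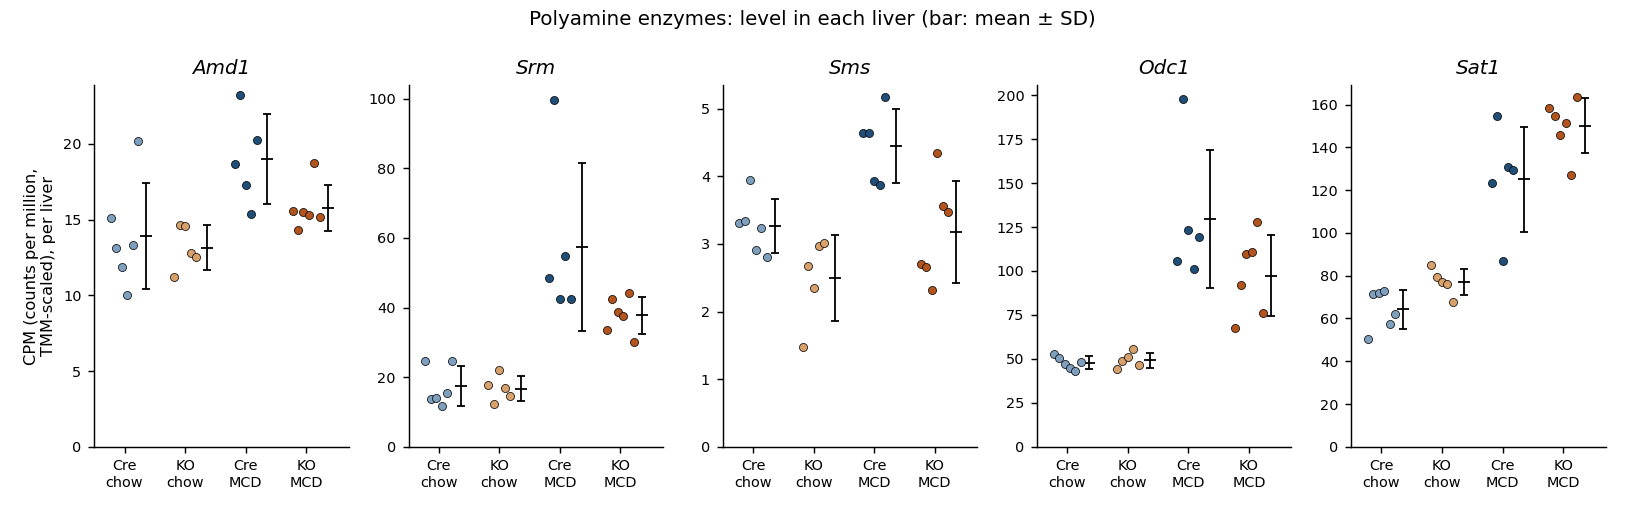
CPM (vertical axis, from 0) of *Amd1*, *Srm*, *Sms*, *Odc1* and *Sat1* in each of 22 livers, by group on the horizontal axis, where a point is a liver and the bar beside it the group's mean ± SD. For *Srm*, *Odc1* and *Sat1* every MCD liver lies above every chow liver of its genotype, and 1 Cre liver on MCD stands at 99.5 CPM for *Srm* and 198 CPM for *Odc1*.

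*Amd1* (ENSMUSG00000075232, GRCm38 chromosome 10, 40287458 to 40302186) encodes S-adenosylmethionine decarboxylase, the enzyme that commits SAM to polyamine synthesis. Its level in Cre mice on chow ranged from 10.0 to 20.2 CPM with a median of 13.2, while on MCD it had 18.7, 23.2, 17.3, 15.4 and 20.3 CPM. In FLCN KO mice it was 11.2, 14.7, 14.6, 12.8 and 12.5 CPM on chow and 14.3 to 18.7 CPM, with a median of 15.4, on MCD. Most MCD livers were above most chow livers, but diet groups overlapped in both genotypes. The rise was 1.36-fold in Cre mice (log2 fold change 0.45, SE 0.14, adjusted p = 0.0084), and in FLCN KO mice the log2 fold change of 0.26 did not pass (95% interval -0.03 to 0.55, adjusted p = 0.13), although it did with only the groups compared (0.25, adjusted p = 0.047) and with library size alone (0.52, adjusted p = 0.0030). With livers of Y-linked reads alone the Cre value was 0.04 (adjusted p = 0.91), and with *Xist* livers alone 0.82 (adjusted p = 2.7e-04). *Amd2*, a near copy of *Amd1* on the same chromosome, had at most 4 counts in any library.

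*Srm* (ENSMUSG00000006442, chromosome 4, 148591503 to 148594993), which encodes spermidine synthase, had the largest positive diet response of the 10 genes. Cre mice on chow ranged from 11.9 to 24.7 CPM with a median of 14.7, and on MCD had 48.4, 99.5, 42.4, 54.7 and 42.3 CPM. FLCN KO mice had 17.8, 12.4, 21.9, 16.8 and 14.6 CPM on chow, and 30.0 to 44.0 with a median of 38.1 CPM on MCD. Every MCD liver exceeded every chow liver, and Cre MCD 2 stood well above the other Cre MCD livers. The rise was 3.32-fold in Cre mice (log2 fold change 1.73, SE 0.23, adjusted p = 1.5e-06; 1.44 without Cre MCD 2) and 2.26-fold in FLCN KO mice (1.18, SE 0.23, adjusted p = 2.7e-04). With Y-linked livers alone the Cre value was 1.19, and with *Xist* livers 2.26.

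*Sms* (ENSMUSG00000071708, chromosome X, 157443855 to 157492287) encodes spermine synthase and was the least abundant member. It had 2.81 to 3.95 CPM (median 3.28) in Cre mice on chow and 4.65, 4.65, 3.93, 3.88 and 5.17 CPM on MCD, and FLCN KO mice had 1.48, 2.67, 2.35, 2.97 and 3.01 CPM on chow and 2.32 to 4.35 CPM (median 3.09) on MCD. In Cre mice a single chow liver reached into the MCD range. The rise there was 1.36-fold (log2 fold change 0.45, SE 0.18, adjusted p = 0.034), and the value in FLCN KO mice was 0.34 (95% interval -0.03 to 0.72, adjusted p = 0.13; 0.60, adjusted p = 0.010 with library size alone). The call in Cre mice was lost when Cre chow 4, 5 or 6 or Cre MCD 1, 2 or 5 was left out, with values between 0.40 and 0.45 (adjusted p = 0.052 to 0.078). It was also lost with all genes of at least 1 count (0.47), with the replicate number as a block (0.44), without the low-mapping libraries (0.39) and with Y-linked livers alone (0.34, adjusted p = 0.41).

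*Odc1* (ENSMUSG00000011179, chromosome 12, 17544794 to 17551505) encodes ornithine decarboxylase, which makes putrescine and is known for its rapid turnover under the control of antizymes. On chow it lay in a narrow range, 42.9 to 53.0 CPM (median 47.7) in Cre mice and 44.5, 48.5, 50.9, 55.5 and 46.8 CPM in FLCN KO mice. With MCD the levels in Cre mice were 106, 198, 123, 101 and 119 CPM and in FLCN KO mice 67.5 to 128 CPM with a median of 101. No MCD liver fell into the chow range. The rise was 2.71-fold in Cre mice (log2 fold change 1.44, SE 0.16, adjusted p = 1.8e-07; 1.23 without Cre MCD 2) and 1.97-fold in FLCN KO mice (0.98, SE 0.16, adjusted p = 4.6e-05). *Sat1* (ENSMUSG00000025283, chromosome X, 155213132 to 155216449), the catabolic acetyltransferase, rose by almost the same amount in both genotypes. Cre mice had 50.2 to 72.7 CPM (median 66.7) on chow and 124, 155, 86.6, 131 and 129.5 CPM on MCD. FLCN KO mice had 84.9, 79.2, 77.2, 75.9 and 67.9 CPM on chow and 127 to 164 CPM (median 153) on MCD. Diet groups did not overlap in either genotype, and the lowest Cre liver on MCD was the one with the most muscle RNA. The rise was 1.95-fold in both, with log2 fold changes of 0.96 (SE 0.12, adjusted p = 7.0e-07) in Cre and 0.96 (SE 0.12, adjusted p = 1.6e-06) in FLCN KO mice. Their difference was 0.00, with an interval of -0.35 to 0.35.

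**Figure D2:**
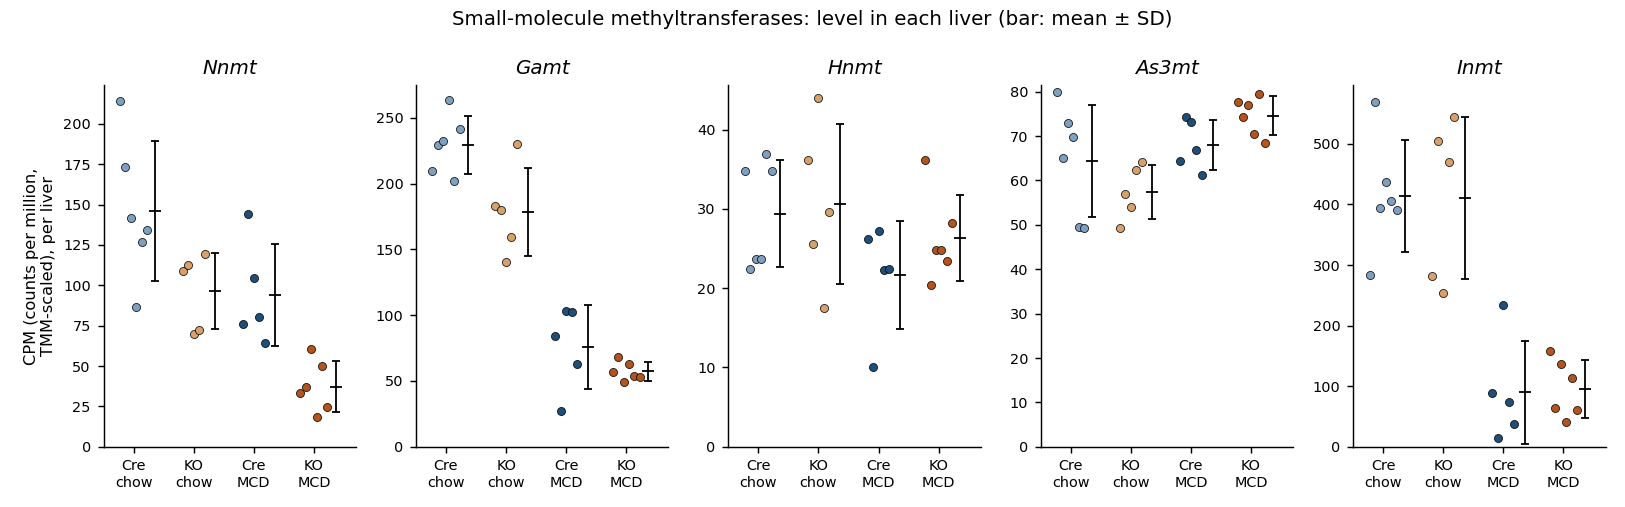
CPM (vertical axis, from 0) of *Nnmt*, *Gamt*, *Hnmt*, *As3mt* and *Inmt* in each liver by group (horizontal axis), with points for livers and bars for mean ± SD. *Gamt* and *Inmt* are lower in every MCD liver than in any chow liver of the same genotype, and *Nnmt* is lower in every FLCN KO liver on MCD (at most 60.5 CPM) than in every Cre liver on MCD (at least 64.1 CPM).

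Of the methyltransferases, *Gamt* (ENSMUSG00000020150, chromosome 10, 80258151 to 80261012) encodes the enzyme that methylates guanidinoacetate to creatine. Cre mice ranged from 202 to 263 CPM (median 231) on chow and had 84.2, 26.9, 103, 103 and 62.8 CPM on MCD. FLCN KO mice had 183, 179.6, 141, 159 and 229.9 CPM on chow and 49.0 to 68.1 CPM (median 55.4) on MCD. Every MCD liver lay below every chow liver of its genotype. *Gamt* was 3.02-fold lower with MCD in Cre mice (log2 fold change -1.59, SE 0.23, adjusted p = 4.4e-06) and 3.11-fold lower in FLCN KO mice (-1.64, SE 0.22, adjusted p = 3.9e-06). With Y-linked livers alone the Cre value was -1.06 and with *Xist* livers -2.06.

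*Inmt* (ENSMUSG00000003477, chromosome 6, 55170626 to 55175043), which encodes an N-methyltransferase of indolethylamines such as tryptamine, had the largest decrease of the 10 genes and varied widely between Cre mice on MCD (89.7 ± 85.6 CPM, SD, n = 5). Cre mice had 283 to 569 CPM (median 399.6) on chow and 89.4, 14.8, 234, 73.6 and 37.2 CPM on MCD. FLCN KO mice had 283, 504, 254, 469.7 and 545 CPM on chow and 40.4 to 158 CPM (median 88.4) on MCD. The highest Cre MCD liver, number 3, came close to the lowest chow liver, and the others lay far below. *Inmt* was 4.61-fold lower in Cre mice (log2 fold change -2.20, SE 0.49, adjusted p = 6.2e-04; -2.94 without Cre MCD 3) and 4.31-fold lower in FLCN KO mice (-2.11, SE 0.47, adjusted p = 9.3e-04). With Y-linked livers alone neither call held (-1.21, adjusted p = 0.13 in Cre and -1.63, adjusted p = 0.055 in FLCN KO mice), while *Xist* livers gave -3.31 and -2.29.

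*Nnmt* (ENSMUSG00000032271, chromosome 9, 48591877 to 48605153) encodes nicotinamide N-methyltransferase, which spends SAM on nicotinamide. Cre mice ranged from 86.4 to 214 CPM (median 138) on chow and had 76.2, 144, 105, 80.3 and 64.1 CPM on MCD, and FLCN KO mice had 109, 113, 69.8, 72.0 and 119 CPM on chow and 18.7 to 60.5 CPM (median 35.0) on MCD. The diets overlapped in Cre mice but not in FLCN KO mice. The FLCN KO mice had 2.59-fold less *Nnmt* on MCD than on chow (log2 fold change -1.37, SE 0.27, adjusted p = 3.4e-04), and in Cre mice the value of -0.64 narrowly missed the threshold (95% interval -1.20 to -0.07, adjusted p = 0.052). It passed in Cre mice when Cre chow 4 (-0.75) or Cre MCD 2 (-0.84) was left out, and, with the value at -0.64, without FLCN KO MCD 3, 4 or 6. It was also called by limma-voom (adjusted p = 0.049), DESeq2 (0.035), a filter of at least 10 counts in at least 5 libraries (0.048), only the groups compared (0.043), a term for the sex read from the counts (0.046) and the replicate block (-0.68, adjusted p = 0.027). Without the low-mapping libraries it was -0.51 (adjusted p = 0.21) and with library size alone -0.20 (adjusted p = 0.54).

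*As3mt* (ENSMUSG00000003559, chromosome 19, 46707458 to 46741099), the arsenite methyltransferase, had 49.3 to 80.0 CPM (median 67.4) in Cre mice on chow and 64.4, 74.2, 73.1, 66.9 and 61.3 CPM on MCD. In FLCN KO mice it had 49.2, 57.0, 54.1, 62.3 and 64.2 CPM on chow and 68.4 to 79.6 CPM (median 75.7) on MCD, without overlap. It rose 1.30-fold there (log2 fold change 0.38, SE 0.11, adjusted p = 0.0075), a call lost with Y-linked livers alone (0.50, adjusted p = 0.11). The Cre value was 0.08 (95% interval -0.15 to 0.30, adjusted p = 0.565), which reached 0.50 (adjusted p = 0.0010) when libraries were scaled by size alone. Under that scaling the median of all genes stood at 0.43 in Cre and 0.27 in FLCN KO mice. *Hnmt* (ENSMUSG00000026986, chromosome 2, 24002910 to 24049394), the histamine N-methyltransferase, passed in neither genotype. It had 22.4 to 36.9 CPM (median 29.3) in Cre mice on chow and 26.2, 10.1, 27.2, 22.3 and 22.4 CPM on MCD, and FLCN KO mice had 36.1, 25.6, 43.9, 17.5 and 29.7 CPM on chow and 20.4 to 36.2 CPM (median 24.8) on MCD. The diet values were -0.44 (95% interval -0.93 to 0.05, adjusted p = 0.12) and -0.22 (-0.70 to 0.27, adjusted p = 0.48). The Cre value was -0.26 without Cre MCD 2, and the FLCN KO value -0.048 without FLCN KO chow 3.

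**Figure D3:**
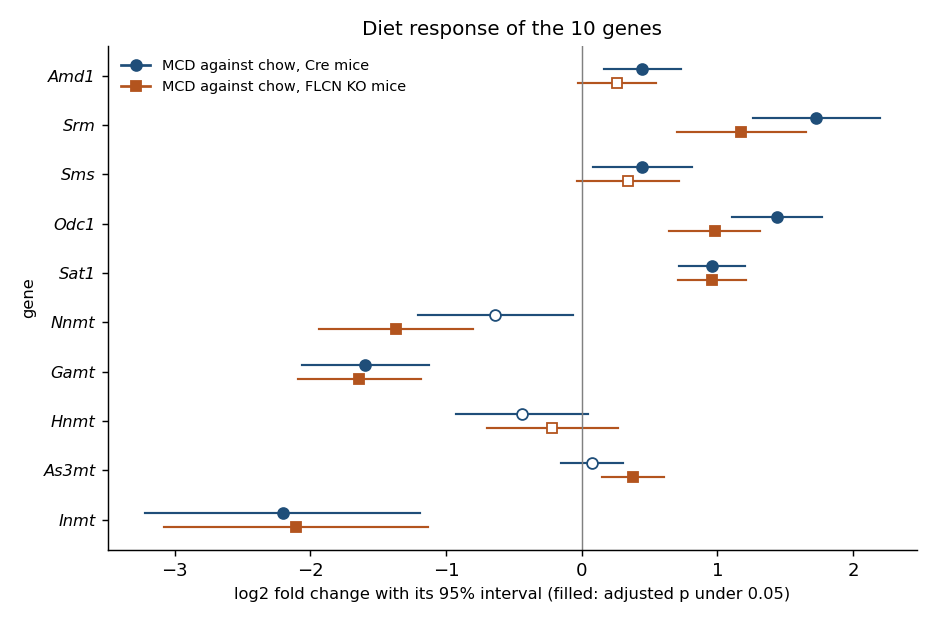
Log2 fold change of MCD against chow (horizontal axis) with its 95% interval for each of the 10 genes, in Cre mice (circles) and FLCN KO mice (squares), with filled symbols for an adjusted p under 0.05 from edgeR. The 5 polyamine genes lie right of 0 in both genotypes, *Gamt* near -1.6 and *Inmt* near -2.2 and -2.1 lie left of it, and the intervals of the genotypes overlap for every gene.

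The levels of the genes were compared with each other per length, as RPKM, which is CPM divided by the kilobases of GENCODE M21 exons. On chow the order from high to low was *Inmt*, *Gamt*, *Nnmt*, *Sat1*, *As3mt*, *Hnmt*, *Odc1*, *Srm*, *Amd1* and *Sms* in both genotypes. In Cre mice on chow, *Inmt* had 258 ± 57.7 RPKM (SD, n = 6), *Gamt* 159 ± 15.3, *Nnmt* 92.6 ± 27.6, *Srm* 10.9 ± 3.58, *Amd1* 3.94 ± 0.988 and *Sms* 0.543 ± 0.0667. The ranges of *Inmt* and *Gamt* overlapped, as did those of neighbours from *Sat1* to *Srm*, whereas *Gamt* lay above *Nnmt*, *Nnmt* above *Sat1*, *Srm* above *Amd1* and *Amd1* above *Sms*. On MCD the upper genes converged. In Cre mice *Nnmt* (59.6 ± 20.2 RPKM, n = 5), *Inmt* (56.1 ± 53.5), *Gamt* (52.6 ± 22.2), *Sat1* (45.1 ± 8.84), *Odc1* (38.0 ± 11.6) and *Srm* (35.9 ± 15.1) formed a run in which each overlapped the one after it, and *Srm* lay above *As3mt* (21.2 ± 1.73). In FLCN KO mice the order was *Inmt* (59.7 ± 29.5 RPKM, n = 6), *Sat1* (54.1 ± 4.59), *Gamt* (39.7 ± 4.90), *Odc1* (28.6 ± 6.75), *Nnmt* (23.7 ± 9.91), *Srm* (23.6 ± 3.32) and *As3mt* (23.2 ± 1.36), each overlapping the one after it, and *As3mt* lay above *Hnmt* (14.9 ± 3.08). *Hnmt*, *Amd1* and *Sms* were the lowest 3 in both genotypes on MCD.

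FLCN KO and Cre mice were then compared on the same diet. On chow, 0 of the 10 genes passed in edgeR, limma-voom or DESeq2, and 2 had an unadjusted p under 0.05 in edgeR: *Sat1* (log2 fold change 0.26, 95% interval 0.02 to 0.51, adjusted p = 0.18; 0.41, adjusted p = 0.043 with library size alone) and *Nnmt* (-0.60, -1.17 to -0.03, adjusted p = 0.19). The share of all tested genes under this unadjusted limit was not counted, here or for the interaction below. At the adjusted threshold 8.62% of all tested genes were called on chow. Groups did not overlap for 6.94%, while all 10 members overlapped. On MCD, 1 member was called, *Nnmt*, against 16.6% of all genes in either direction and 8.53% downward, and it was also the 1 member without overlap, against 8.61% of all genes. The 6 FLCN KO livers (at most 60.5 CPM) were all below the 5 Cre livers (at least 64.1 CPM). *Nnmt* was 2.52-fold lower in FLCN KO mice on MCD (log2 fold change -1.33, SE 0.27, adjusted p = 0.0019). It ranged from -1.52 to -1.12 with each liver left out, and missed the threshold with *Xist* livers alone (-1.08, adjusted p = 0.066; -1.66, adjusted p = 0.018 with Y-linked livers).

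The polyamine synthesis genes were lower in FLCN KO than in Cre mice on MCD in value, but none of them passed. *Srm* had a log2 fold change of -0.61 (95% interval -1.06 to -0.15, adjusted p = 0.062), *Sms* -0.48 (-0.84 to -0.12, adjusted p = 0.060), *Odc1* -0.41 (-0.74 to -0.09, adjusted p = 0.078) and *Amd1* -0.27 (-0.55 to 0.01, adjusted p = 0.19). *Sat1* went the other way at 0.26 (0.02 to 0.51, adjusted p = 0.14), and *Gamt* stood at -0.41 (-0.86 to 0.04, adjusted p = 0.22). Single livers decided several of these. *Srm* passed without Cre chow 6 (-0.61), Cre MCD 3 (-0.70) or Cre MCD 5 (-0.70), and fell to -0.32 without Cre MCD 2. *Sms* passed without FLCN KO chow 1 (-0.48) or FLCN KO MCD 4 (-0.59), *Odc1* without FLCN KO MCD 5 (-0.51; -0.21 without Cre MCD 2), and *Sat1* (0.35) and *Gamt* (-0.62) without Cre MCD 2. Without Cre MCD 3, in contrast, *Sat1* was 0.16 and *Gamt* -0.27. DESeq2 called *Srm* and *Sms* (adjusted p = 0.036 and 0.035), as did the fit without the low-mapping libraries (0.030 and 0.044). *Srm* also passed with the sex term (-0.64, adjusted p = 0.044), *Sms* with limma-voom (adjusted p = 0.030) and with *Xist* livers alone (-0.62, adjusted p = 0.046), and *Gamt* with Y-linked livers alone (-0.73, adjusted p = 0.024). *Hnmt*, *As3mt* and *Inmt* had values of 0.28, 0.13 and 0.09, with adjusted p from 0.45 to 0.93.

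Whether the diet response itself differed between genotypes was tested as the interaction. It passed for 0 of the 10 genes in edgeR, limma-voom and DESeq2, with 0 at an unadjusted p under 0.05 in edgeR, while 8.83% of all tested genes were called. The values were -0.74 for *Nnmt* (95% interval -1.53 to 0.06), -0.55 for *Srm* (-1.21 to 0.10), -0.46 for *Odc1* (-0.92 to 0.01), 0.30 for *As3mt* (-0.02 to 0.62), 0.22 for *Hnmt* (-0.46 to 0.91), -0.19 for *Amd1* (-0.59 to 0.22), -0.11 for *Sms* (-0.63 to 0.42), 0.10 for *Inmt* (-1.25 to 1.45) and -0.04 for *Gamt* (-0.68 to 0.59). The intervals leave room for differences of 1 on the log2 scale only for *Nnmt*, *Srm* and *Inmt*. Without Cre MCD 2 the values were -0.53 for *Nnmt*, -0.26 for *Srm*, -0.25 for *Odc1*, -0.10 for *Amd1* and 0.042 for *Hnmt*. In the same fit *Gamt* stood at -0.26 and *Inmt* at -0.18.

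Other genes of polyamine metabolism moved in both directions. Of 19 listed, 14 could be tested, of which the MCD diet raised 5 and lowered 6 in Cre mice, and raised 4 and lowered 4 in FLCN KO mice (medians of -0.19 and -0.15 on the log2 scale). The oxidases of this pathway diverged. *Smox*, which oxidises spermine directly, had 2.13 to 3.16 CPM in Cre mice on chow and 5.34 to 19.1 CPM on MCD, a 4.25-fold rise (log2 fold change 2.09, SE 0.24, adjusted p = 3.6e-07), and medians of 4.04 and 9.44 CPM in FLCN KO mice (1.10, adjusted p = 8.6e-04). *Paox*, which oxidises the acetylated polyamines that SAT1 makes, fell 5.94-fold in Cre mice, from a median of 55.8 to 8.53 CPM (-2.57, SE 0.23, adjusted p = 7.4e-09), and 4.85-fold in FLCN KO mice (-2.28, adjusted p = 5.1e-08). On chow it was lower in FLCN KO than in Cre mice (-0.73, adjusted p = 0.034), a call lost without Cre chow 1, 2 or 3 or FLCN KO chow 1, 3 or 4 (-0.72 to -0.57), with all genes of at least 1 count (-0.70), with only the groups compared (-0.70), without the low-mapping libraries (-0.58), with Y-linked livers alone (-1.04) and with library size alone (-0.58). *Oaz1*, the antizyme that directs ODC1 to the proteasome, had 149 to 173 CPM in Cre mice on chow and 67.4 to 87.7 CPM on MCD (2.07-fold lower, log2 fold change -1.05, SE 0.08, adjusted p = 4.9e-10) and medians of 121 and 80.8 CPM in FLCN KO mice (1.48-fold lower, -0.56, adjusted p = 3.6e-06). Its response was smaller in FLCN KO mice (interaction 0.48, SE 0.11, adjusted p = 0.0080) and its level on chow lower (-0.34, adjusted p = 0.0062). Neither call held with library size alone (0.33, adjusted p = 0.062, and -0.19, adjusted p = 0.13) or with Y-linked livers alone (0.34 and -0.25, adjusted p = 0.60 and 0.51), and the chow call narrowly missed without the low-mapping libraries and with *Xist* livers alone (-0.39 in both). *Azin1*, the antizyme inhibitor, did not pass (-0.40, adjusted p = 0.052, and -0.20, adjusted p = 0.35). In Cre mice it passed with limma-voom (adjusted p = 0.040), with a filter of at least 10 counts in at least 5 libraries (0.047) and without Cre chow 2 (-0.45) or 4 (-0.45), Cre MCD 3 (-0.59), FLCN KO chow 5 (-0.40) or FLCN KO MCD 2 (-0.40). *Atp13a2*, a lysosomal polyamine exporter, was the 1 gene of this list to differ between genotypes on MCD (-0.34, adjusted p = 0.016), a call lost without Cre MCD 4 (-0.30), with only the groups compared (-0.35, adjusted p = 0.056) and with Y-linked livers alone (-0.35, adjusted p = 0.37). Those untested for low counts included *Amd2*, *Oaz3*, *Satl1* and *Eif5a2*.

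Polyamine synthesis releases methylthioadenosine, which a salvage route of 5 listed genes returns to methionine. The diet raised 2 and lowered 2 of them in Cre mice, and raised 2 in FLCN KO mice. *Mtap*, the phosphorylase that opens the route, rose 1.40-fold in Cre mice (log2 fold change 0.49, SE 0.08, adjusted p = 3.5e-05), where its groups did not overlap, and 1.17-fold in FLCN KO mice (0.23, adjusted p = 0.031). The second call was lost without FLCN KO chow 1 or 2 or FLCN KO MCD 1, 4 or 5 (0.20 to 0.21), with all genes of at least 1 count (0.23), with the replicate block (0.24), without the low-mapping libraries (0.22) and with *Xist* (0.20) or Y-linked livers alone (0.23, adjusted p = 0.29). With Y-linked livers the Cre call narrowly missed (0.39, adjusted p = 0.053). *Enoph1* rose 1.66-fold in FLCN KO mice (0.73, SE 0.15, adjusted p = 4.7e-04; 0.51, adjusted p = 0.053 with *Xist* livers alone) and also in Cre mice (0.395, adjusted p = 0.027). The Cre call was lost without Cre chow 1, 2 or 6 or Cre MCD 4 or 5 (0.33 to 0.38), with all genes of at least 1 count (0.42), without the low-mapping libraries (0.27) and with *Xist* (0.28) or Y-linked livers alone (0.55). *Adi1*, the dioxygenase at the end of the route, fell in Cre mice (-0.41, adjusted p = 4.4e-04; 0.011 with libraries scaled by size alone) and was higher in FLCN KO than in Cre mice on MCD (0.47, SE 0.09, adjusted p = 8.6e-04), and neither call held with Y-linked livers alone (-0.31 and 0.31, adjusted p = 0.105 and 0.25).

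**Figure D4:**
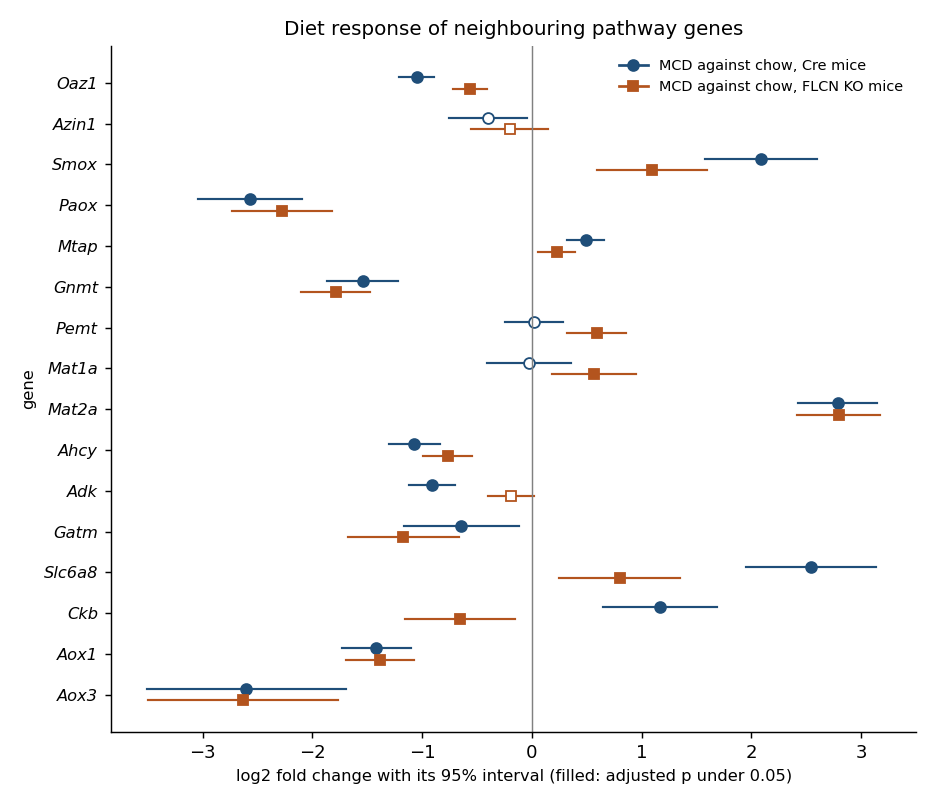
Log2 fold change of MCD against chow (horizontal axis) with its 95% interval for 16 neighbouring genes of polyamine, SAM, creatine and nicotinamide metabolism in Cre mice (circles) and FLCN KO mice (squares), filled at an adjusted p under 0.05 from edgeR. *Mat2a* lies at 2.79 in both genotypes, *Paox*, *Gnmt* and *Aox3* lie below -1.5 in both, and *Ckb* lies at 1.17 in Cre and -0.66 in FLCN KO mice.

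Among 13 other small-molecule methyltransferases, 9 could be tested, of which 1 was raised and 3 lowered by MCD in Cre mice, and 2 raised and 2 lowered in FLCN KO mice. *Gnmt*, the abundant glycine methyltransferase that takes up surplus SAM, had medians of 2124 CPM on chow and 722 on MCD in Cre mice and 1434 and 406 CPM in FLCN KO mice. It fell 2.91-fold (log2 fold change -1.54, SE 0.16, adjusted p = 4.7e-08) and 3.45-fold (-1.79, SE 0.15, adjusted p = 9.0e-09). It was lower in FLCN KO mice on MCD (-0.82, SE 0.15, adjusted p = 7.3e-04), though not past the threshold with *Xist* livers alone (-0.43, adjusted p = 0.087). On chow the value was -0.58 (adjusted p = 0.019), a call lost without FLCN KO chow 3 (-0.52), without the low-mapping libraries (-0.51, adjusted p = 0.215), with *Xist* (-0.51) or Y-linked livers alone (-0.68) and with library size alone (-0.43). *Mettl7a1* fell in both genotypes (-1.27 and -1.38, adjusted p = 9.9e-07 and 4.3e-07). *Pemt*, which makes phosphatidylcholine by repeated methylation, stood at 0.02 (adjusted p = 0.90; 0.44, adjusted p = 0.0048 with library size alone) in Cre mice and rose 1.51-fold in FLCN KO mice (0.59, SE 0.13, adjusted p = 8.3e-04). Its genotype difference on MCD was close to the threshold (0.39, adjusted p = 0.043) and was lost in 9 of 22 fits with a liver left out and in 5 of 12 other alternatives (adjusted p up to 0.18).

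The supply of SAM and the removal of its product were covered by 7 genes, of which 2 were raised and 4 lowered in Cre mice, and 3 raised and 2 lowered in FLCN KO mice. *Mat2a*, the methionine adenosyltransferase of extrahepatic and dividing cells, had a larger change than any member. In Cre mice it had 60.6 to 111 CPM (median 67.8) on chow and 517, 756, 427, 454 and 445 CPM on MCD. In FLCN KO mice it had 65.1, 52.6, 77.3, 49.7 and 55.4 CPM on chow and 367 to 469.8 CPM (median 409) on MCD. The rises were 6.90-fold (log2 fold change 2.79, SE 0.17, adjusted p = 4.7e-11) and 6.94-fold (2.79, SE 0.18, adjusted p = 1.9e-10). *Mat1a*, the hepatocyte enzyme, did not pass in Cre mice (-0.02, adjusted p = 0.92) and rose in FLCN KO mice (0.57, adjusted p = 0.016), a call lost without FLCN KO chow 1 (0.47) or 3 (0.46) and without the low-mapping libraries (0.31, adjusted p = 0.10). *Ahcy*, which removes S-adenosylhomocysteine, fell 2.10-fold and 1.70-fold (adjusted p = 7.5e-08 and 8.1e-06). On chow its value in FLCN KO against Cre mice was -0.44 (adjusted p = 0.014), which did not hold without FLCN KO chow 4 or the low-mapping libraries (-0.41 in each), with *Xist* (-0.41) or Y-linked livers alone (-0.43) or with library size alone (-0.29). *Adk*, which clears the adenosine that AHCY releases, fell in Cre mice (-0.91, SE 0.10, adjusted p = 2.2e-07) with -0.19 (adjusted p = 0.13) in FLCN KO mice, and these responses differed (interaction 0.72, SE 0.14, adjusted p = 0.0045; 0.65, adjusted p = 0.37 with Y-linked livers alone). On MCD *Adk* was higher in FLCN KO mice (0.51, adjusted p = 0.0017; 0.35, adjusted p = 0.33 with Y-linked livers alone).

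**Figure D5:**
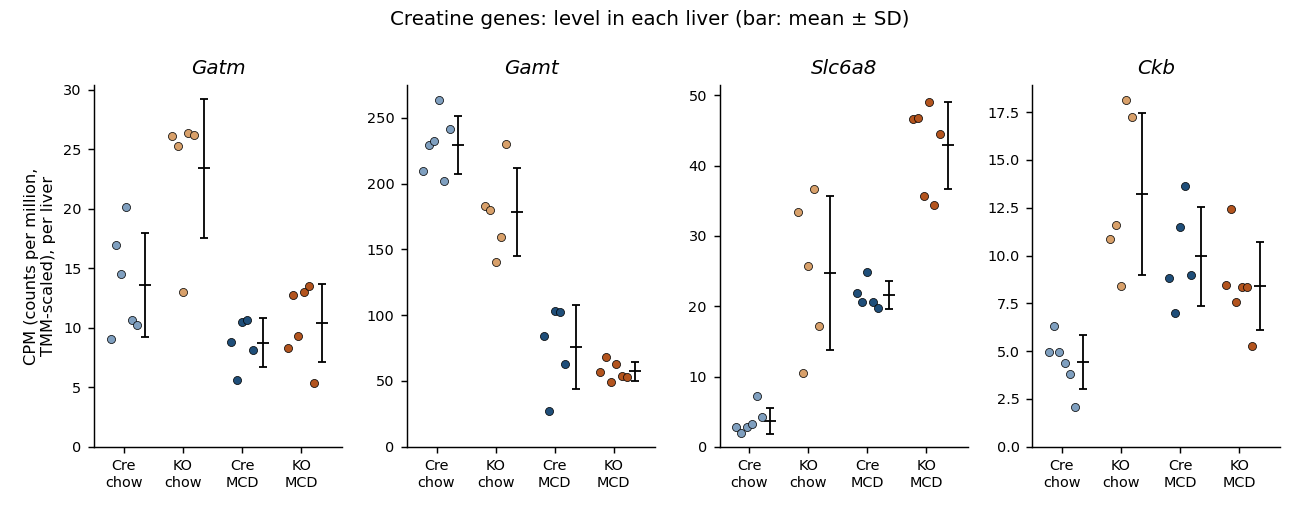
CPM (vertical axis, from 0) of *Gatm*, *Gamt*, *Slc6a8* and *Ckb* in each liver by group (horizontal axis), with points for livers and bars for mean ± SD. *Slc6a8* lies at 1.94 to 7.16 CPM in Cre mice on chow and at 10.4 CPM or more in every other liver, while *Gamt* is separated by diet alone.

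The 17 listed neighbours of the methyltransferases' substrates, 13 of them tested, included the creatine genes around *Gamt*. The diet raised 3 and lowered 7 in Cre mice, and raised 1 and lowered 6 in FLCN KO mice. *Gatm*, which makes guanidinoacetate, was low in liver (medians of 12.5 CPM on chow and 8.84 on MCD in Cre mice, and 13.0 to 26.4 CPM against 5.38 to 13.5 CPM in FLCN KO mice) and fell 2.25-fold in FLCN KO mice (log2 fold change -1.17, SE 0.24, adjusted p = 5.3e-04; -0.79, adjusted p = 0.063 with Y-linked livers alone). The Cre value of -0.64 (adjusted p = 0.033) no longer passed without Cre chow 2, 3 or 4 or Cre MCD 1, 2 or 5 (-0.65 to -0.49), with all genes of at least 1 count (-0.62), with library size alone (-0.23) or with Y-linked livers alone (0.10). On chow *Gatm* was higher in FLCN KO than in Cre mice (0.78, adjusted p = 0.0499). That call was lost in 16 of 22 fits with a liver left out and in 9 of 12 other alternatives. *Slc6a8*, the creatine importer, had 1.94 to 7.16 CPM (median 3.03) in Cre mice on chow, 33.3, 10.4, 25.7, 36.7 and 17.2 CPM in FLCN KO mice on chow, 21.8, 20.7, 24.9, 20.6 and 19.7 CPM in Cre mice on MCD, and 34.4 to 49.1 CPM (median 45.6) in FLCN KO mice on MCD. Both the diet and the loss of *Flcn* went with a higher level. It was 5.82-fold higher with MCD in Cre mice (2.54, SE 0.29, adjusted p = 2.1e-07), 6.66-fold higher in FLCN KO mice on chow (2.74, SE 0.29, adjusted p = 1.3e-06) and 1.99-fold higher in FLCN KO mice on MCD (0.99, adjusted p = 0.012). The diet response was smaller in FLCN KO mice (interaction -1.74, SE 0.38, adjusted p = 0.0081), where its call (0.80, adjusted p = 0.017) was lost without FLCN KO chow 5 (0.69). In the subsets by *Xist* or Y-linked reads, the genotype call on MCD missed in both (0.88, adjusted p = 0.083, and 1.05, adjusted p = 0.053), as did the diet call in FLCN KO mice (0.83, adjusted p = 0.053, and 0.67, adjusted p = 0.10), and the interaction missed with Y-linked livers (-1.59, adjusted p = 0.11). *Ckb*, a creatine kinase, followed *Slc6a8* on chow (2.99-fold higher in FLCN KO mice, 1.58, SE 0.25, adjusted p = 2.5e-04), and rose in Cre mice with MCD (1.17, SE 0.25, adjusted p = 4.4e-04). In FLCN KO mice it fell (-0.66, adjusted p = 0.031; interaction -1.82, SE 0.35, adjusted p = 0.0033), a call lost without FLCN KO chow 4 (-0.52) or 5 (-0.54) or FLCN KO MCD 3 (-0.63) or 6 (-0.55), with the replicate block (-0.51), with library size alone (-0.39) and with Y-linked livers alone (0.0026, where the interaction of -1.81 had an adjusted p of 0.11). In *Xist* livers alone the diet values of *Ckb* were 0.66 and -1.15 in Cre and FLCN KO mice, and in Y-linked livers the Cre value was 1.81. Without the muscle-rich Cre MCD 3, the rise of *Slc6a8* and *Ckb* in Cre mice still passed, as in all 22 fits with a liver left out.

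*Aox1* and *Aox3*, aldehyde oxidases that act on methylated nicotinamide, fell with MCD. *Aox1* changed by -1.42 and -1.38 (SE 0.15 each, adjusted p = 1.1e-07 and 2.2e-07) and *Aox3* by -2.60 and -2.63 (SE 0.44 and 0.42, adjusted p = 3.3e-05 and 2.8e-05) in Cre and FLCN KO mice. Without the low-mapping libraries the Cre value of *Aox3* was -1.43 and still passed. *Aox1* was lower in FLCN KO than in Cre mice on chow (-0.50, adjusted p = 0.037) and on MCD (-0.47, adjusted p = 0.034). Each of these calls was lost in 7 of 22 fits with a liver left out. The chow call was also lost in 7 of 12 other alternatives (-0.12 without the low-mapping libraries), and the MCD call in 3 of 12. *Hdc*, which makes histamine, the substrate of HNMT, was low, with medians of 3.57 CPM in Cre and 1.66 in FLCN KO mice on MCD, and 2.19-fold lower in FLCN KO mice there (-1.13, SE 0.22, adjusted p = 0.0011; -1.07, adjusted p = 0.10 with Y-linked livers alone). With MCD *Hdc* rose in Cre mice (0.77, adjusted p = 0.0046), a call lost without the low-mapping libraries (0.57) and with *Xist* livers alone (0.53). Of 21 methyltransferases of DNA, RNA and proteins, all tested, 5 rose and 3 fell in Cre mice and 6 rose and 1 fell in FLCN KO mice, with medians of -0.02 and 0.04. Of all tested genes 57.5% and 45% were called in either direction. The genes named from this list had the largest called changes, and those that fell are not named. *Dnmt3a*, a DNA methyltransferase, rose 2.05-fold and 1.56-fold (adjusted p = 4.2e-07 and 2.4e-04), *Kmt5a*, a histone H4 methyltransferase, 1.98-fold and 1.68-fold (adjusted p = 5.0e-07 and 3.0e-05), and *Prmt1*, the main arginine methyltransferase, 1.75-fold and 1.68-fold (adjusted p = 2.3e-07 and 1.4e-06). *Dnmt3a* was also higher in FLCN KO mice on chow (0.41, adjusted p = 0.040), a call lost in 7 of 22 fits with a liver left out and in 5 of 12 other alternatives (adjusted p up to 0.35).

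Cell type markers moved with the same groups. Of 8 markers of infiltrating macrophages, 8 rose with MCD in Cre mice and 3 in FLCN KO mice. Their summed levels on chow were 110 to 145 CPM in Cre mice and 182 to 288 in FLCN KO mice. On MCD they were 330 to 646 CPM in Cre mice and 218 to 514 in FLCN KO mice. By its mean over all livers *Lyz2* was the most abundant (median 191 CPM in Cre mice on MCD). In FLCN KO mice *Spp1*, also in this list, had higher medians than *Lyz2*. These were 93.1 against 88.0 CPM on chow and 90.9 against 88.6 CPM on MCD. Of 8 stellate cell and myofibroblast markers 6 rose in Cre mice, with summed medians of 132 CPM on chow and 278 on MCD against 166 and 139 CPM in FLCN KO mice (*Reln* most abundant). Within this list *Des* was highest in the muscle-rich livers, at 146 CPM in Cre MCD 3 and 15.3 in Cre MCD 4. It had 6.95, 6.63 and 5.99 CPM in Cre MCD 1, 2 and 5. *Acta2* was also highest in Cre MCD 3 and 4, at 15.8 and 7.70 CPM. All 8 proliferation markers rose in Cre mice, from a summed median of 12.3 to 39.9 CPM, against 24.7 and 16.4 CPM in FLCN KO mice (*Mki67* most abundant). Of 8 hepatocyte markers 6 fell in each genotype, and of 6 periportal markers 5 fell in each, with *Ass1* from a median of 2640 to 1265 CPM in Cre mice. Of 8 genes that male growth hormone secretion raises, 6 fell in Cre and 7 in FLCN KO mice (list medians of -5.56 and -4.99 on the log2 scale, *Mup3* most abundant). No marker gene of these lists was at 0 throughout a group. The part of these cells and programmes in the members' values was not tested.

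Genes whose log2 CPM closely followed each member over the 22 libraries are given as a description, since all share the diet groups. *Srm* went with *Bysl* (Pearson r = 0.96), *Prmt7* (0.96) and *Alg8* (0.96), *Odc1* with *AU040320* (0.95), *Sat1* with *Chmp2b* (0.97) and *Plpp2* (0.96), *Gamt* with *Umad1* (0.96) and *Inmt* with *Uroc1* (0.96). For the other 5 members the highest values were 0.89 for *Amd1* (*Epb41*), 0.90 for *Nnmt* (*Slc25a48*), 0.83 for *Hnmt* (*Ormdl1*), 0.82 for *As3mt* (*Mllt3*) and 0.81 for *Sms* (*Entpd5*).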

How the data were processed

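Total RNA from frozen liver was made into mRNA libraries (KAPA mRNAseq Hyperprep) and sequenced. The authors trimmed reads with Trimmomatic, aligned them to GRCm38 with STAR and deposited HTSeq counts, whole numbers of reads per gene without normalization, in 1 table whose 22 columns all carry a sample label. Versions, annotation release, strand setting and collapsing of molecular identifiers are not given in the sources used here, so errors from counting alone understate amplification noise. Groups were taken from the labels. The 14062 genes averaging 10 counts or more were fitted together for all 4 groups in R 4.3.3 with edgeR 4.0.16 (TMM, quasi-likelihood test, Benjamini-Hochberg). The test code was checked on simulated data. Alternatives were limma-voom (limma 3.58.1), DESeq2 1.42.0, other scaling and filters, fits of the compared groups only, a replicate block, a term for sex read from the counts, subsets of libraries and leaving out each liver. RPKM used GENCODE M21 exon lengths.

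The members, pathway lists and marker lists were chosen with earlier results of these data known. Named genes were the 10 members, *Flcn*, the 2 strongest called changes per pathway list and comparison, and *Amd2*, *Oaz1*, *Azin1*, *Smox*, *Paox*, *Mtap*, *Gnmt*, *Pemt*, *Mat1a*, *Mat2a*, *Gatm* and *Aox3*. A gene that this rule names is not reported here. Similar genes came from those averaging at least 50 counts (log2 CPM, prior count 2). A low uniquely mapped share was under 75%, read from library statistics of the study. Kupffer, neutrophil, lymphocyte, endothelial, cholangiocyte and pericentral markers were also counted, and their results stand in the closing section.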

Additional observations from a re-analysis of the deposited data

Results flagged for a closer look

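Single livers stood apart in 4 of 40 groups of member levels, by the gap to the nearest liver relative to the group's range. Chance alone flags about 1 in 20 groups. *Amd1* in FLCN KO MCD 5 was the highest of 6 at 18.7 CPM (next 15.6). The other 3 fell in the same liver, Cre MCD 2, where *Srm* was highest at 99.5 CPM (next 54.7), *Odc1* highest at 198 CPM (next 123) and *Hnmt* lowest at 10.1 CPM (next 22.3).

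The diet response differed between genotypes, by the interaction in edgeR's quasi-likelihood test with Benjamini-Hochberg adjustment, for 4 named neighbours of the members. The log2 interactions were -1.74 for *Slc6a8* (adjusted p = 0.0081), -1.82 for *Ckb* (0.0033), 0.72 for *Adk* (0.0045) and 0.48 for *Oaz1* (0.0080). With Y-linked livers alone all 4 missed the threshold (adjusted p from 0.11 to 0.60), and *Oaz1* also did with library size alone (0.33, adjusted p = 0.062).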

How the results depend on the processing

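Of 1690 values of members under alternatives, 1574 kept their direction and side of the threshold, 15 lost a call, 32 gained one and 69 changed sign. The cause of these changes was not tested. Members called numbered 7 with MCD in Cre mice and 4 with Y-linked livers alone; in FLCN KO mice 7, and 8 with only the groups compared, 9 with library size alone and 5 with Y-linked livers; on chow between genotypes 0, and 1 with library size alone; on MCD 1, and 2 with limma-voom, 3 with DESeq2, 2 with the sex term, 3 without the 5 low-mapping chow libraries, 2 with Y-linked livers, and 1 to 3 with each liver left out (3 without Cre MCD 2). With MCD in Cre mice 8 members were called with limma-voom, DESeq2, the filter of 10 counts in 5 libraries, only the groups compared, the sex term or library size alone. There were 6 with all genes of at least 1 count or without the low-mapping libraries, and 6 to 8 with each liver left out. All genes called fell from 8089 to 4681 (MCD, Cre), 6328 to 2916 (MCD, FLCN KO), 1212 to 339 (genotype, chow), 2333 to 686 (genotype, MCD) and 1242 to 62 (interaction) with Y-linked livers, which are fewer samples. Between genotypes on chow they were 494 without the low-mapping libraries, 624 with *Xist* livers and 670 to 1429 with each liver left out; for the interaction, 779 without the low-mapping libraries and 819 to 1426 with each liver left out.

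Same-numbered mice had mean correlations of their deviations from -0.08 to 0.13, over 5 pairs in each comparison. Between genotypes, single pairs ranged from -0.55 to 0.47 on chow and from 0.06 to 0.26 on MCD. So few pairs do not settle whether replicate numbers pair the mice. With the replicate block the interaction called 552 genes, the sign of *Sat1* turned (-0.011), and the numbers of members called were 7, 7, 0, 1 and 0, with *Nnmt* in and *Sms* out in Cre mice.

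Signs reversed as follows. With MCD in Cre mice, *As3mt* was -0.027 without the low-mapping libraries and -0.056 with *Xist* livers, *Pemt* -0.12 and -0.066 in the same fits, *Adi1* 0.011, *Azin1* 0.0265 and *Mat1a* 0.39 with library size alone, and *Mat1a* 0.35 and *Gatm* 0.10 with Y-linked livers. With MCD in FLCN KO mice, *Hnmt* was 0.12 without the low-mapping libraries, 0.071 with *Xist* livers and 0.048 with library size alone, *Azin1* 0.061 with library size alone and *Ckb* 0.0026 with Y-linked livers. Between genotypes on chow, without the low-mapping libraries, with *Xist* livers and with library size alone, *Amd1* was 0.19, 0.19 and 0.072, *Srm* 0.14, 0.14 and 0.10, and *Inmt* 0.12, 0.12 and 0.14. *Inmt* was also 0.022 with all genes of at least 1 count and 0.018 with only the groups compared. On MCD *Inmt* was -0.83 with Y-linked livers. For the interaction, *Sat1* was -0.0044 with DESeq2, -0.0052 with RLE factors, -0.013 with all genes of at least 1 count, -0.048 with Y-linked livers and -0.16 with library size alone. *Gamt* was 0.11 with limma-voom and 0.19 with *Xist* livers. *Inmt* was -0.030 without the low-mapping libraries, -0.43 with Y-linked livers and -0.052 with library size alone. With Y-linked livers *Amd1* was 0.17, *Sms* 0.39 and *Hnmt* -0.084.

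With each liver left out, ranges crossed 0 for *Pemt* (-0.053 to 0.11) and *Mat1a* (-0.15 to 0.049) with MCD in Cre mice. Between genotypes on chow they did so for *Amd1* (-0.16 to 0.054), *Srm* (-0.17 to 0.072), *Odc1* (-0.0036 to 0.077), *Hnmt* (-0.11 to 0.20) and *Inmt* (-0.13 to 0.12), and on MCD for *Inmt* (-0.18 to 0.83). For the interaction they did so for *Sat1* (-0.10 to 0.090), *Gamt* (-0.26 to 0.092) and *Inmt* (-0.18 to 0.84). Depth limits *Sms* most, with 19 to 113 counts per library.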

Other observations

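On chow, the levels of 3 members are given by livers with *Xist* reads (n = 6) and livers with Y-linked reads (n = 5), a division that coincides with the low uniquely mapped rate there. *Hnmt* had 17.5 to 29.7 CPM (median 23.7) in the first and 34.8 to 43.9 CPM (median 36.1) in the second, without overlap. The ranges of all other members overlapped. *Srm* had 11.9 to 16.8 CPM and 15.3 to 24.7 CPM, and *Inmt* 393 to 569 CPM and 254 to 406 CPM. On MCD *Hnmt* overlapped (10.1 to 28.2 and 20.4 to 36.2 CPM). These values were not tested. The share of all tested genes without overlap in this split was not counted, so the separation of *Hnmt* has no background to be set against.

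Other marker lists moved as follows with MCD. Of 6 Kupffer cell markers 1 rose and 2 fell in Cre mice and 3 fell in FLCN KO mice. All 4 tested neutrophil markers rose in Cre mice and 3 in FLCN KO mice. Of 7 tested lymphocyte markers 4 fell in FLCN KO mice. Of 6 endothelial markers 2 rose and 2 fell in Cre mice and 3 fell in FLCN KO mice. Of 6 cholangiocyte markers 3 rose in Cre mice, with *Spp1* the most abundant (medians of 44.4 and 110 CPM on chow and MCD). The summed medians of this list in Cre mice were 57.4 and 134 CPM. *Spp1* is also in the list of infiltrating macrophage markers, so its rise is counted in both lists. Of 6 pericentral markers 2 fell in Cre mice and 4 in FLCN KO mice. All 10 skeletal muscle genes rose in Cre mice, where Cre MCD 3 held 3021 CPM of them, Cre MCD 4 147 and Cre MCD 1 19.5. Cre MCD 2 (2.37 CPM) and Cre MCD 5 (1.18 CPM) did not exceed the highest Cre chow liver (6.28 CPM).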
